A study of Mus musculus with 13 samples.

Results

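The nuclear genes for the proteins of the mitochondrial ribosome were followed through the maturation of mouse oocytes, with and without the long noncoding RNA Sirena1. Members were the genes of the count table whose Ensembl identifier carries a symbol of Mrpl or Mrps followed by a number, with symbols of pseudogenes (-ps) left out. This gave 78 genes, 49 named Mrpl and 29 named Mrps, of 54232 genes in the table. The choice used names and no measured value. Counts were high enough to test 76 of the 78 members, among 20143 genes tested.

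The mitochondrial ribosome translates the mRNAs that are encoded in mitochondrial DNA, all of which specify subunits of the respiratory chain or of ATP synthase. Its rRNAs come from the mitochondrial genome, whereas its proteins are encoded in the nucleus, made in the cytosol and imported. Some of these proteins descend from bacterial ribosomal proteins, and others were added in mitochondria. The fully grown oocyte transcribes little and lives on stored maternal mRNA, part of which is degraded as meiosis is completed, while its mitochondria are passed on to the embryo.

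RNA had been sequenced from 13 pools of 25 cells each. Matured eggs arrested in metaphase of the second meiotic division (MII), ovulated after hormone treatment, came from Sirena1 -/- females (MII Null, n = 4) and from wild-type females (MII WT, n = 3). Fully grown oocytes that still held the germinal vesicle (GV), the nucleus before meiosis resumes, came from Sirena1 -/- females (GV Null, n = 3) and from wild-type females (GV WT, n = 3), also hormone-treated, and were collected in IBMX, an inhibitor that holds meiotic arrest. The Null allele is a Cas9 deletion of the Sirena1 promoter, carried by every cell of the female. Its line was bred with C57BL/6NCrl mice. The strain of all libraries is labelled C57BL6/J, while the protocol names C57Bl6/J or C57BL/6NCrl females without saying which gave which pool. The labels name no female for any pool, so p-values measure the spread between these pools.

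The deleted RNA, listed as C86187, had 35.9 to 45.0 CPM (counts scaled to a common library size with TMM factors) in MII Null and 23.3 to 26.4 CPM in GV Null libraries. It had 4271 to 4693 CPM in MII WT and 2912 to 3092 CPM in GV WT libraries, so all 13 genotype labels matched. Total counts ran from 30867614 to 41285507 per library. Detection was set at 3 counts, or 0.0672 to 0.105 CPM by library. The summed level of 10 oocyte markers was 10210 ± 503 CPM in MII Null, 10295 ± 756 in MII WT, 12369 ± 642 in GV Null and 12104 ± 595 in GV WT (SD). Cumulus and granulosa cells surround the oocyte in the follicle, and 24 of their markers summed to 101 to 136 CPM in MII Null, 108 to 112 in MII WT, 102 to 651 in GV Null and 102 to 134 in GV WT. The sum was highest in GV Null replicates 2 (651 CPM) and 3 (268 CPM). Nr5a2 and Cyp19a1 made up most of it in the other libraries. The remaining 22 markers summed to 31.6 CPM in MII Null replicate 4 and 9.73 to 11.9 in the other MII Null pools, to 11.7 to 12.8 in MII WT, to 24.1, 548 and 176 in GV Null replicates 1 to 3, and to 21.9 to 49.2 in GV WT. Of these markers, 3 had no count in any MII Null library, 9 in any MII WT, 0 in any GV Null and 1 in any GV WT library. MII Null replicate 4 lay between the stages on the leading principal component over all genes, with a score of 25.7, where the remaining MII Null pools scored 65.8 to 81.4, the MII WT pools 70.1 to 78.7 and the GV pools -108 to -64.4.

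The start regions of the genes are shown first, since the members are scattered over the genome and encode parts of a single complex. RefSeq (GRCm38.p6) windows of 250 bases before to 50 after the annotated start were at hand for 69 of the 78 members. They were searched on both strands for 3 motifs of transcription factors known for nuclear genes of mitochondrial function, namely NRF1 (GCGCA and GCGC with 1 base between them), the ETS factor GABPA (CCGGAAG) and YY1 (AANATGGCG). The ETS motif was present in 26 of the 69 windows (37.7%), the NRF1 motif in 13 (18.8%) and the YY1 motif in 11 (15.9%). Among the windows of all 27025 genes the shares were 9.93%, 5.19% and 2.76%, and among 17492 protein-coding genes 12.9%, 7.17% and 3.64%. At least 1 of the 3 motifs was found in 42 windows and 2 of them in 8, while 27 held none, and no match overlapped a match of another motif. The CCAAT box (CCAAT) was in 39.1% of the members' windows and 41.1% of all windows, and the TATA box (TATAAA) in 7.25% and 15.7%. A match describes the letters and is not a site shown to be bound. Windows for Mrpl4, Mrpl13, Mrpl15, Mrpl19, Mrpl38, Mrpl54, Mrps28, Mrps34 and Mrps35 are not printed here.

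Below are the 110 bases before and 10 after the start of members whose values are given later, with motif matches in capitals. Mrpl33 (chr5:31613841-31613960, plus strand), Mrps12 (chr7:28741812-28741931, minus), Mrpl43 (chr19:45006433-45006552, minus) and Mrpl3 (chr9:105053158-105053277, plus) show the ETS motif beside genes that fell and a gene that rose. Mrpl9 (chr3:94443226-94443345, plus) and Mrpl45 (chr11:97315606-97315725, plus) show the NRF1 motif beside a gene that fell and a gene that did not pass the test. Mrps11 (chr7:78783021-78783140, plus) shows the YY1 motif on the other strand. This match begins 108 bases before the start of Mrps11, inside the annotated span of Mrpl46.
Mrpl33: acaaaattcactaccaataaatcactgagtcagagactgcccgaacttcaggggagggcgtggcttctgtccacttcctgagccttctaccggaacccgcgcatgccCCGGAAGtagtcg
Mrps12: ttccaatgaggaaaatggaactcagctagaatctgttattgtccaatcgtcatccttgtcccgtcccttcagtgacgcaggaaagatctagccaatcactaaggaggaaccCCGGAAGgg
Mrpl43: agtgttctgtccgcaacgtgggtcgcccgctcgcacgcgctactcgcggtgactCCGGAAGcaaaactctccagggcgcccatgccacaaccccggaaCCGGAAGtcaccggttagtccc
Mrpl3: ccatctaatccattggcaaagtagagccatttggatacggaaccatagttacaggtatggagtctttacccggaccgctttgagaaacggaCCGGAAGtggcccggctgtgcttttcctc
Mrpl9: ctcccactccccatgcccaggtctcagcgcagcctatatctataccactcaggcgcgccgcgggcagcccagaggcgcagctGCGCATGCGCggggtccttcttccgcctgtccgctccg
Mrpl45: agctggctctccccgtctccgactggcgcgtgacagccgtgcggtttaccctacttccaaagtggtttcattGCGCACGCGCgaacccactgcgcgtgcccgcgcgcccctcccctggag
Mrps11: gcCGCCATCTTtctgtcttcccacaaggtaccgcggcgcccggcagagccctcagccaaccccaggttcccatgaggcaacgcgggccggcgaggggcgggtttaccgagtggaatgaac
The same motif thus stood near the start of members of opposite course. The median log2 fold change of MII over GV in WT was -0.82 for the 25 tested members with the ETS motif and -0.58 for the 43 without it. It was -0.59 for 13 with the NRF1 motif and -0.82 for 55 without it, and -0.52 for 11 with the YY1 motif and -1.0 for 57 without it.

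The summed level of the members was lower in MII eggs than in GV oocytes. In the MII Null libraries the 78 members summed to 1321, 1041, 1041 and 1065 CPM, and in the MII WT libraries to 1043, 1072 and 1057 CPM. In the GV Null libraries they summed to 1748, 1626 and 1722 CPM and in the GV WT libraries to 1656, 1570 and 1753 CPM. Every MII library lay below every GV library, and the genotypes overlapped at each stage. MII Null replicate 1 stood above the other MII libraries. CPM are shares of the counted RNA, so that a lower value means a smaller share, and in pools fewer RNA molecules per cell and fewer contributing cells cannot be told apart. The Mrpl genes summed to 1.40 ± 0.039 times the Mrps genes in MII Null and 1.39 ± 0.048 times in MII WT, against 1.28 ± 0.0027 times in GV Null and 1.27 ± 0.0090 times in GV WT (SD).

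**Figure D1:**
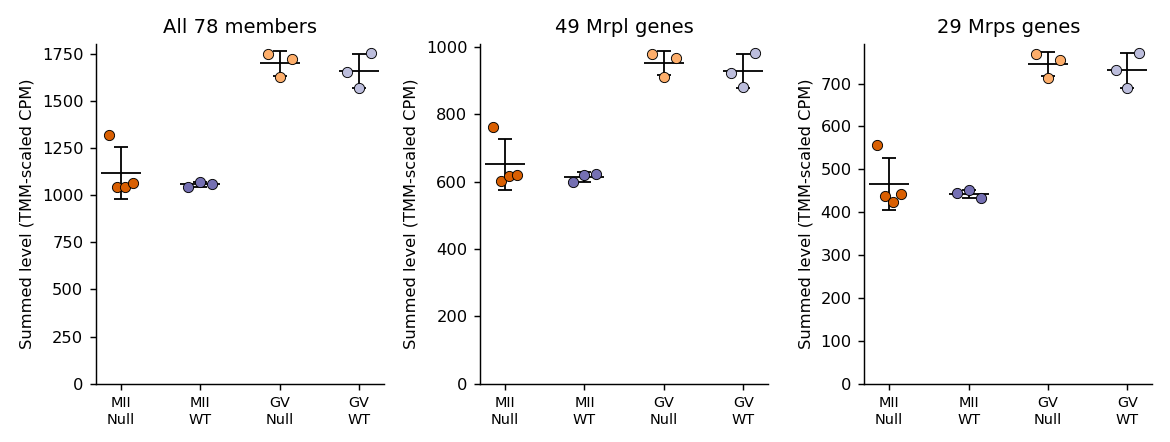
Summed level (TMM-scaled CPM) of all 78 members, of the 49 Mrpl genes and of the 29 Mrps genes in each library; points are libraries, the long bar is the group mean and the whiskers are 1 SD. The MII libraries lie at 1041 to 1321 CPM for all members and the GV libraries at 1570 to 1753 CPM, with MII Null replicate 1 the highest MII library in each panel.

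Most members fell between the GV and the MII stage in either genotype. In WT, 52 of 76 tested members were lower in MII eggs (68.4%), against 22.8% of all genes tested, and 3 were higher (3.95%), against 19.9% of all genes, at an adjusted p under 0.05 (edgeR quasi-likelihood test with Benjamini-Hochberg adjustment over all genes). In Null, 52 were likewise lower, against 26.9% of all genes, and 3 were higher, against 22.1%. The median log2 fold change of the tested members was -0.82 in WT and -0.68 in Null, where the median over all genes was 0.0053 and -0.049. Of the members called in WT, 52 of 55 (94.5%) were called in the same direction in Null, which is also 52 of 55 for the Null list. The shares over all genes were 86.7% of the WT list and 75.7% of the Null list. The MII and GV libraries did not overlap for 64 of 76 members in WT (84.2%), against 58.3% of all genes, and for 52 of 76 in Null (68.4%), against 46.4% of all genes.

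The falls differed widely in size. In WT, 35 members (46.1%) fell at least 2-fold, against 14.5% of all genes, and 12 (15.8%) fell at least 4-fold, against 7.17% of all genes. In Null the numbers were 31 (40.8%) and 11 (14.5%), against 17.6% and 8.35% of all genes. Leaving out GV Null replicates 2 and 3 and MII Null replicate 4, the libraries that stood apart, left GV Null replicate 1 alone in its group. The median log2 fold change of the members was then -0.64 in Null and -0.82 in WT, where the median over all genes was 0 and -0.012. Calls in Null named below as lost under this setting compare MII eggs with that pool alone. Of 21 tested cumulus and granulosa cell markers, 13 were lower at MII in Null and 6 in WT. With the log2 sum of all 24 markers as a covariate, 51 members were lower in Null and 53 in WT, where 20.1% and 23.6% of all genes were lower. Since Nr5a2 and Cyp19a1 make up most of this sum in most libraries, it sets MII Null replicate 4 little apart. That pool had 136 CPM, against 101 to 122 CPM in the remaining MII Null pools.

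**Figure D2:**
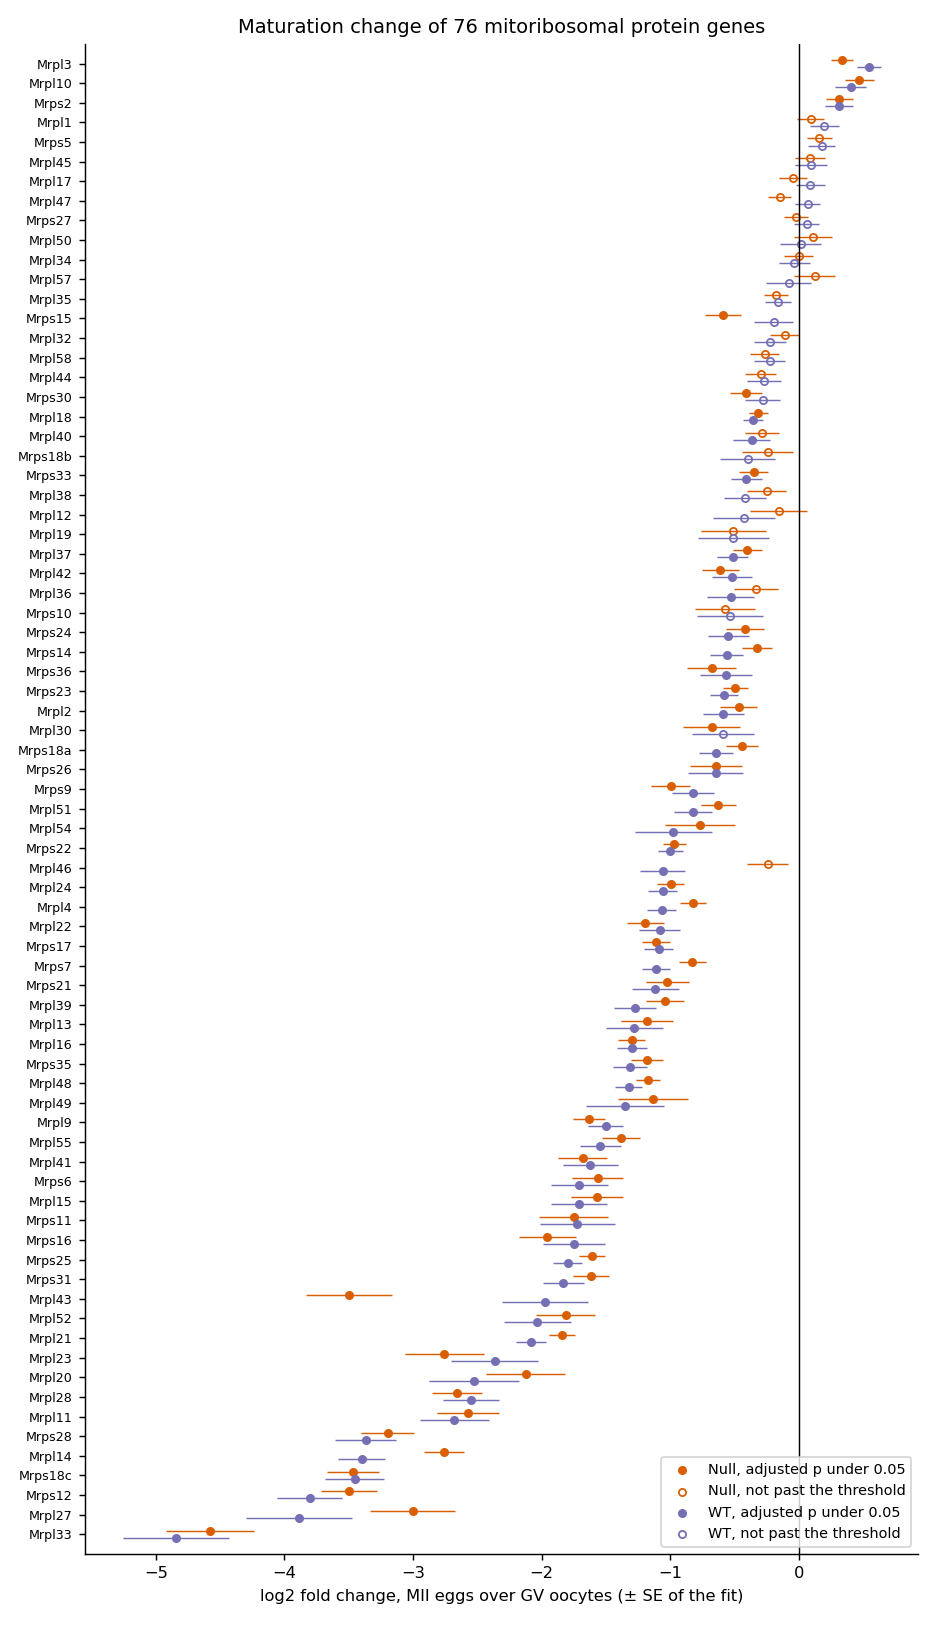
Log2 fold change of MII eggs over GV oocytes with the SE of the fit for each of the 76 tested members, in Null (orange) and WT (purple); filled points passed an adjusted p of 0.05. The values run from -4.84 (Mrpl33, WT) to 0.54 (Mrpl3, WT), and 52 members lie to the left of 0 with a filled point in each genotype.

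Among the deepest falls were proteins of the large subunit that descend from bacteria. Mrpl33 had 0.236, 0.140, 0.191 and 0.684 CPM in the MII Null libraries and 0.331, 0.172 and 0.127 CPM in the MII WT libraries, against 5.77, 8.05 and 8.99 CPM in the GV Null and 6.23, 5.44 and 6.68 CPM in the GV WT libraries. Mrpl33, a small protein of the large subunit (bacterial L33), is annotated at chr5:31613951-31622644 of GRCm38.p6 (ENSMUSG00000106918). This span overlaps that of Gm38424, and how reads in both were counted is not known. The 7 MII libraries were all under 0.7 CPM, and the GV libraries all above 5 CPM. The change was log2 -4.84 ± 0.41 in WT (SE, adjusted p = 5.17e-08) and log2 -4.58 ± 0.34 in Null (SE, adjusted p = 8.95e-09), or 28.7-fold and 23.9-fold lower. These folds rest on low MII levels, with the lowest, 0.127 CPM, close to the detection limit of its library, 0.0953 CPM. Among tested members Mrpl33 varied most between MII pools, with an SD of 80.1% of the mean in MII Null and 51.0% in MII WT.

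Mrpl14 had 1.44, 1.72, 1.27 and 1.58 CPM in the MII Null libraries and 0.993, 0.862 and 1.05 CPM in the MII WT libraries, against 10.5, 9.43 and 10.6 CPM in the GV Null and 10.5, 8.72 and 11.5 CPM in the GV WT libraries. Mrpl14 (bacterial L14; ENSMUSG00000023939, chr17:45685722-45698495) lies on the face of the large subunit that meets the small one and is the docking place of the assembly factor Malsu1. Every GV library exceeded every MII library, and every MII Null library exceeded every MII WT library. The change was log2 -3.40 ± 0.18 in WT (SE, adjusted p = 1.29e-10) and log2 -2.76 ± 0.16 in Null (SE, adjusted p = 1.86e-10). The annotated span of Mrpl14 overlaps that of Tmem63b, whose level was higher at MII, and the strand setting of the counting is not given in the sources used here.

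Mrpl28 had 2.36, 1.65, 1.46 and 1.80 CPM in the MII Null libraries and 1.19, 1.76 and 2.38 CPM in the MII WT libraries, against 10.4, 11.8 and 12.6 CPM in the GV Null and 11.4, 10.4 and 9.48 CPM in the GV WT libraries. Every MII library was below every GV library. Mrpl28 (bacterial L28) fell by 2.66 ± 0.20 (log2, SE) in Null and by 2.55 ± 0.22 in WT, with adjusted p = 3.87e-09 and 3.34e-08. Mrpl21 had 13.9, 11.6, 11.2 and 10.5 CPM in the MII Null libraries and 11, 10.3 and 9.97 CPM in the MII WT libraries, against 47.5, 39.3 and 40.0 CPM in the GV Null and 45.2, 41.8 and 45.6 CPM in the GV WT libraries. For Mrpl21 (bacterial L21) no MII library reached 14 CPM and no GV library was under 39 CPM, and the change was log2 -2.08 ± 0.12 in WT (SE, adjusted p = 1.76e-10) and log2 -1.84 ± 0.10 in Null (SE, adjusted p = 1.71e-10). The span of Mrpl21 overlaps that of Ighmbp2. Mrpl9 (bacterial L9), whose NRF1 motif is printed above, averaged 13.9 ± 1.7 CPM in MII Null and 13.2 ± 2.3 in MII WT, against 43.0 ± 6.0 in GV Null and 37.3 ± 2.7 in GV WT. It fell by 1.5 ± 0.14 (log2, SE) in WT and by 1.63 ± 0.13 in Null, with adjusted p = 8.91e-08 and 8.03e-09.

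The stalk of the large subunit, which recruits the translation factors, showed 3 courses among its 3 members. Mrpl11 had 1.55, 1.19, 1.75 and 2.36 CPM in the MII Null libraries and 0.828, 1.76 and 2.41 CPM in the MII WT libraries, against 10.7, 9.36 and 10.6 CPM in the GV Null and 10.7, 10.3 and 11.2 CPM in the GV WT libraries. Mrpl11, at the base of the stalk, fell in both genotypes, at log2 -2.68 ± 0.27 in WT (SE, adjusted p = 3.78e-07) and log2 -2.57 ± 0.24 in Null (SE, adjusted p = 1.4e-07), with no overlap between the stages. Mrpl10 had 32.7, 24.1, 27.6 and 23.7 CPM in the MII Null libraries and 21.7, 26.6 and 24.3 CPM in the MII WT libraries, against 19.9, 18.8 and 19.8 CPM in the GV Null and 19.7, 17.0 and 18.1 CPM in the GV WT libraries. Mrpl10 (ENSMUSG00000001445, chr11:97041582-97049213), which anchors the stalk, was above its GV range in every MII library. Its rise was log2 0.40 ± 0.12 in WT (SE, adjusted p = 0.0123) and log2 0.47 ± 0.11 in Null (SE, adjusted p = 0.00234). Mrpl12, the stalk protein itself, averaged 11.5 ± 4.8 CPM in MII Null and 9.05 ± 1.1 in MII WT, against 12.8 ± 0.53 in GV Null and 12.1 ± 1.6 in GV WT, and did not pass the test, at log2 -0.42 ± 0.24 in WT (SE, adjusted p = 0.173) and log2 -0.16 ± 0.22 in Null (SE, adjusted p = 0.59).

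Among the members named Mrps the deepest falls in WT were those of Mrps12, Mrps18c and Mrps28. Mrps12 had 0.498, 0.420, 0.413 and 0.559 CPM in the MII Null libraries and 0.232, 0.483 and 0.508 CPM in the MII WT libraries, against 5.11, 5.90 and 5.19 CPM in the GV Null and 6.02, 5.29 and 5.89 CPM in the GV WT libraries. Mrps12 (bacterial S12; ENSMUSG00000045948, chr7:28739641-28741821) lies at the decoding centre, where codon and anticodon are read. MII and GV libraries were apart, with all MII values under 0.6 CPM. The change was log2 -3.80 ± 0.25 in WT (SE, adjusted p = 1.68e-09) and log2 -3.50 ± 0.22 in Null (SE, adjusted p = 6.32e-10), or 14.0-fold and 11.3-fold lower.

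Mrps18c had 0.840, 0.630, 0.763 and 1.27 CPM in the MII Null libraries and 0.927, 0.862 and 0.762 CPM in the MII WT libraries, against 11.1, 10.1 and 8.03 CPM in the GV Null and 9.70, 8.25 and 10.1 CPM in the GV WT libraries. Mrps18c (ENSMUSG00000016833, chr5:100798759-100804467), a homologue of bacterial S18 on the platform of the small subunit, thus had a level below 1.3 CPM in all MII libraries. Its change was log2 -3.45 ± 0.23 in WT (SE, adjusted p = 1.69e-09) and log2 -3.46 ± 0.20 in Null (SE, adjusted p = 2.73e-10). Its paralogs had smaller values. Mrps18a, which sits in the large subunit despite its name, averaged 11 ± 1.8 CPM in MII Null and 10.2 ± 0.64 in MII WT, against 15 ± 0.98 in GV Null and 16 ± 1.2 in GV WT, and fell by 0.64 ± 0.13 (log2, SE) in WT and by 0.44 ± 0.12 in Null, with adjusted p = 0.000736 and 0.00662. Mrps18b averaged 3.90 ± 1.1 CPM in MII Null and 3.31 ± 0.57 in MII WT, against 4.63 ± 0.40 in GV Null and 4.36 ± 0.40 in GV WT and did not pass the test, at log2 -0.40 ± 0.22 in WT (SE, adjusted p = 0.15) and log2 -0.24 ± 0.20 in Null (SE, adjusted p = 0.334). The difference between the paralogs was not tested. For Mrps18a in Null the call was lost without the libraries that stood apart, a setting with GV Null replicate 1 alone in its group.

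Mrps28 had 1.68, 1.33, 0.953 and 2.02 CPM in the MII Null libraries and 1.26, 1.24 and 0.826 CPM in the MII WT libraries, against 15.7, 11.8 and 13.9 CPM in the GV Null and 10.3, 10.6 and 13.4 CPM in the GV WT libraries. Mrps28 (ENSMUSG00000040269, chr3:8802146-8923857) is the counterpart of bacterial S1, a protein of the small subunit. Its change was log2 -3.37 ± 0.24 in WT (SE, adjusted p = 3.78e-09) and log2 -3.20 ± 0.21 in Null (SE, adjusted p = 8.69e-10), and no MII library came near a GV library. The span of Mrps28 overlaps predicted genes, of which Gm15466 had at most 28 counts in a library.

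Among the members named Mrps whose proteins arose in mitochondria, Mrps31 and Mrps25 fell most in both genotypes. Mrps31 had 24.2, 18.6, 13.6 and 23.4 CPM in the MII Null libraries and 15.1, 16.1 and 15.6 CPM in the MII WT libraries, against 65.8, 60.1 and 57.7 CPM in the GV Null and 56.8, 50.5 and 58.9 CPM in the GV WT libraries. Mrps25 had 18.7, 15.2, 16.1 and 15.3 CPM in the MII Null libraries and 14.9, 15.5 and 15.7 CPM in the MII WT libraries, against 57.7, 45.1 and 47.1 CPM in the GV Null and 50.1, 52.9 and 57.3 CPM in the GV WT libraries. For both genes every MII library was below every GV library. The change of Mrps31 was log2 -1.83 ± 0.16 in WT (SE, adjusted p = 8.19e-08) and log2 -1.62 ± 0.14 in Null (SE, adjusted p = 8.59e-08), and that of Mrps25 was log2 -1.80 ± 0.11 in WT (SE, adjusted p = 7.68e-10) and log2 -1.61 ± 0.10 in Null (SE, adjusted p = 6.39e-10). Mrps25 overlaps Nr2c2, which averaged 17.5 ± 2.5 CPM in MII Null and 16.6 ± 0.91 in MII WT, against 16.5 ± 0.42 in GV Null and 16.4 ± 1.5 in GV WT.

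**Figure D3:**
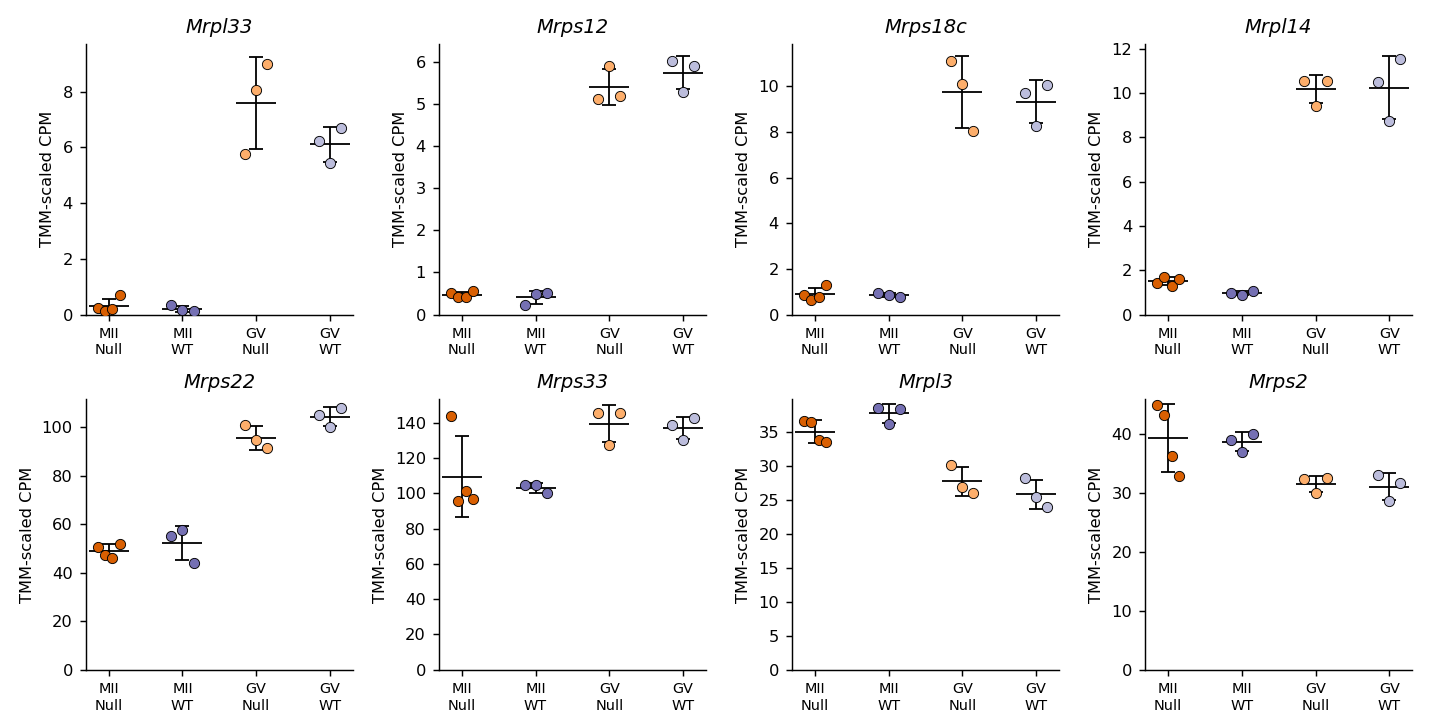
TMM-scaled CPM of 8 members in each library, with the group mean (long bar) and 1 SD; each panel has its own linear axis from 0. Mrpl33, Mrps12, Mrps18c and Mrpl14 are under 2 CPM in every MII library, Mrps22 and Mrps33 are lower at MII by a smaller factor, and Mrpl3 and Mrps2 are higher at MII.

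The 4 members with the highest CPM in GV WT oocytes were Mrps33, Mrps22, Mrpl48 and Mrpl18. CPM is not divided by length, so it orders counts and not molecules between genes. Mrps33 had 144, 95.6, 102 and 97.0 CPM in the MII Null libraries and 105, 105 and 100 CPM in the MII WT libraries, against 146, 127 and 146 CPM in the GV Null and 138, 130 and 142 CPM in the GV WT libraries. Mrps33, a mitochondrial addition to the head of the small subunit, fell by a small factor, at log2 -0.41 ± 0.12 in WT (SE, adjusted p = 0.012) and log2 -0.35 ± 0.11 in Null (SE, adjusted p = 0.0164). MII Null replicate 1 lay within the GV Null range for this gene, and the Null call held in 17 of 22 alternative settings. The settings that lost it included those without GV Null replicate 1, without GV Null replicate 3 and without the 3 libraries that stood apart. Mrps22 had 50.6, 47.5, 45.9 and 52.0 CPM in the MII Null libraries and 55.4, 57.5 and 44.2 CPM in the MII WT libraries, against 101, 94.7 and 91.4 CPM in the GV Null and 105, 100 and 108 CPM in the GV WT libraries. Mrps22, another mitochondria-specific protein of the small subunit, was 2.00-fold lower in WT and 1.95-fold lower in Null, and its stages did not overlap. Mrpl48 averaged 40.7 ± 4.5 CPM in MII Null and 36.1 ± 1.9 in MII WT, against 91.7 ± 6.2 in GV Null and 90.2 ± 9.8 in GV WT, and Mrpl18 57.5 ± 3.6 CPM in MII Null and 59.1 ± 0.97 in MII WT, against 71.6 ± 4.7 in GV Null and 75.5 ± 3.6 in GV WT. Both belong to the central protuberance, the crest of the large subunit, and both passed the test as lower in each genotype (log2 -1.32 and -0.35 in WT, -1.17 and -0.32 in Null). Counts of Mrpl48 are uncertain, since the pseudogene Mrpl48-ps had 22.4% to 27.1% as many counts per library. The span of Mrpl18 overlaps that of Tcp1, and how reads in both were counted is not known. Tcp1 averaged 86.6 ± 9.7 CPM in MII Null and 87.6 ± 3.7 in MII WT, against 100 ± 13 in GV Null and 110 ± 1.4 in GV WT. Its log2 fold change in WT was -0.33, so the level and fall of Mrpl18 are uncertain too.

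At the other end, Mrpl53 had no count in any library and Mrps34 had 0 to 8 counts per library, with its highest value, 0.196 CPM, in GV Null replicate 1, so neither could be tested. Mrpl20 (bacterial L20) averaged 0.407 ± 0.095 CPM in MII Null and 0.310 ± 0.12 in MII WT, against 1.77 ± 0.51 in GV Null and 1.80 ± 0.073 in GV WT, and fell by 2.53 ± 0.35 (log2, SE) in WT and by 2.12 ± 0.31 in Null, with adjusted p = 1.39e-05 and 1.82e-05. Mrpl19 (bacterial L19) averaged 1.01 ± 0.075 CPM in MII Null and 0.856 ± 0.17 in MII WT, against 1.44 ± 0.13 in GV Null and 1.22 ± 0.31 in GV WT and did not pass the test, with adjusted p = 0.154 in WT and 0.107 in Null. A further low gene, Mrpl27 (bacterial L27), averaged 0.295 ± 0.14 CPM in MII Null and 0.145 ± 0.074 in MII WT, against 2.44 ± 0.16 in GV Null and 2.18 ± 0.15 in GV WT. It fell by 3.89 ± 0.41 (log2, SE) in WT and by 3.00 ± 0.33 in Null, with 2 counts in the lowest MII WT and 3 in the lowest MII Null library. The span of Mrpl27 overlaps that of Eme1.

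Of the members, 3 rose, and these were the same 3 genes in both genotypes, Mrpl3, Mrpl10 and Mrps2. Mrpl3 had 36.6, 36.4, 33.8 and 33.5 CPM in the MII Null libraries and 38.6, 36.2 and 38.4 CPM in the MII WT libraries, against 30.2, 26.9 and 26.1 CPM in the GV Null and 28.2, 25.5 and 23.9 CPM in the GV WT libraries. Mrpl3 (bacterial L3; ENSMUSG00000032563, chr9:105053268-105077466), which reaches close to the centre where peptide bonds are made, was above its GV range in every MII library of the same genotype, at log2 0.54 ± 0.093 in WT (SE, adjusted p = 0.000116) and log2 0.34 ± 0.087 in Null (SE, adjusted p = 0.00354). Mrps2 had 44.9, 43.2, 36.3 and 32.8 CPM in the MII Null libraries and 39.0, 36.9 and 40.0 CPM in the MII WT libraries, against 32.2, 30.0 and 32.4 CPM in the GV Null and 32.9, 28.5 and 31.7 CPM in the GV WT libraries. Mrps2 (bacterial S2; ENSMUSG00000035772, chr2:28465951-28471177), in the head of the small subunit, changed by log2 0.32 ± 0.11 in WT (SE, adjusted p = 0.0264) and log2 0.32 ± 0.10 in Null (SE, adjusted p = 0.0162). Each rise was under 1.5-fold, and none passed a test against a minimum of 1.5-fold. The WT call of Mrps2 was lost when a single pool was dropped from the common fit, which held for replicates 2 and 3 of GV WT, replicates 1 and 3 of MII WT, and replicates 2 and 3 of MII Null. Its Null call was lost without GV Null replicate 2, MII Null replicate 1 or MII Null replicate 2, with the level of the cumulus markers as a covariate, and without the 3 libraries that stood apart. The call of Mrpl10 in WT was lost without GV WT replicate 2 or MII WT replicate 2, and that of Mrpl3 in Null with the cumulus covariate or without the libraries that stood apart. Among the 21 members not called in WT, Mrpl17 and Mrpl47, both near the exit of the tunnel for the nascent chain, had log2 fold changes of 0.089 ± 0.11 and 0.069 ± 0.095 (SE), and Mrpl45, which ties the exit to the inner membrane, 0.095 ± 0.12. An adjusted p above the threshold does not show that their levels were equal.

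Grouped by origin, proteins inherited from bacteria and proteins added in mitochondria both fell for the most part. Of 29 bacterial-type proteins of the large subunit, 18 fell and 2 rose in WT (median log2 fold change -1.06), and 18 fell and 2 rose in Null (median -0.82). Of 20 tested mitochondria-specific proteins of the large subunit, 13 fell and 0 rose in WT (median -0.58), and 12 fell and 0 rose in Null (median -0.42). In the small subunit, 12 of 16 bacterial-type proteins fell and 1 rose in WT (median -1.10), and 13 fell and 1 rose in Null (median -1.01). Of 9 tested mitochondria-specific ones, 7 fell and 0 rose in either genotype (median -0.65 in WT and -0.64 in Null). Grouped by place, all 4 platform proteins (Mrps6, Mrps11, Mrps18c and Mrps21) fell in both genotypes, with medians of -1.71 in WT and -1.66 in Null. Of 6 proteins of the central protuberance, 5 fell in WT and 3 in Null (medians -0.74 and -0.30). Of 6 proteins around the tunnel exit, 3 fell in either genotype (Mrpl22, Mrpl23 and Mrpl24). Of 8 proteins of the head, 6 fell and Mrps2 rose in either genotype. Of all genes, 22.8% fell and 19.9% rose in WT (median 0.0053), and 26.9% fell and 22.1% rose in Null (median -0.049). The differences between these groups were not tested.

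Of the 69 members with a window, 20 had an annotated start that lay head to head with the start of another gene on the other strand, at most 300 bases apart or overlapping by at most 100 (29%, against 9.01% of all 27025 genes). In 19 cases the member and its partner were both tested, with the pair of Mrps11 and Mrpl46 counted once from each side. In WT the member fell in 15 of them, and of its partners 6 fell, 4 rose and 5 were not called, where 22.8% of all genes fell and 19.9% rose. In Null the member fell in 14, and of its partners 1 fell, 4 rose and 9 were not called, where 26.9% of all genes fell and 22.1% rose. Besides Mrps11 and Mrpl46, the partners that fell in WT beside a falling member were Fau (Mrpl49), Hira (Mrpl40), Ighmbp2 (Mrpl21) and Tcp1 (Mrpl18). Their log2 fold changes were -2.73, -1.61, -0.64 and -0.33 in WT, and -2.88, -1.48, -0.38 and -0.21 in Null. In Null, Ighmbp2 and Tcp1 did not pass the test. The pairs below were picked after their values were seen. Those with Sars2, Helq, Tmem63b and Eme1 have partners that did not fall. Mrps12 starts 147 bases from Sars2, the mitochondrial seryl-tRNA synthetase, and the 110 bases of them nearest Mrps12 are printed above. Sars2 averaged 4.63 ± 1.2 CPM in MII Null and 4.62 ± 0.85 in MII WT, against 4.18 ± 0.35 in GV Null and 4.53 ± 0.39 in GV WT, with log2 fold changes of 0.029 ± 0.21 in WT and 0.15 ± 0.20 in Null (SE), beside -3.80 and -3.50 for Mrps12. Mrps18c starts 159 bases from Helq, a DNA helicase of repair, which rose by 0.51 in WT and 0.65 in Null on the log2 scale (adjusted p = 0.000642 and 2.99e-05). Mrpl14 starts 131 bases from Tmem63b, a membrane channel gene that rose by 0.51 in WT and 0.53 in Null (adjusted p = 0.00012 and 3.04e-05). Mrpl27 starts 48 bases from Eme1, an endonuclease subunit, which rose by 0.53 in WT and 0.50 in Null (adjusted p = 0.0145 and 0.0126). Mrps11 and Mrpl46 form a pair of 2 members, 42 bases apart. Mrps11, on the platform, averaged 1.15 ± 0.35 CPM in MII Null and 1.28 ± 0.45 in MII WT, against 3.92 ± 0.87 in GV Null and 4.24 ± 0.97 in GV WT. It fell by 1.72 ± 0.29 (log2, SE) in WT and by 1.75 ± 0.27 in Null. Mrpl46, of the central protuberance, fell by 1.06 ± 0.17 in WT and did not pass the test in Null, where its value was -0.24 ± 0.16.

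The counting can also mix genes. Of the 76 tested members, 24 overlap another RefSeq gene and 3 (Mrpl23, Mrpl48 and Mrps36) have a pseudogene row of their own name, with Mrpl48 in both sets. Mrps36-ps1 and Mrps36-ps2 had 28.0% to 32.2% and 31% to 34.4% as many counts as Mrps36, whose protein is also known as a part of the 2-oxoglutarate dehydrogenase complex, and Mrpl23-ps1 had 72.9% to 200% as many as Mrpl23. Values of these 3 members are uncertain. Among the 50 tested members with neither, 32 fell and 2 rose in WT (median -0.74), against 22.8% and 19.9% of all genes, and 32 fell in Null (median -0.64), against 26.9% of all genes.

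In the wider machinery of mitochondrial translation the RNAs made in mitochondria rose, and the lists of nuclear genes differed in the share that fell. Over all genes tested, 22.8% fell and 19.9% rose in WT, and 26.9% fell and 22.1% rose in Null. Of 5 mitoribosomal proteins with other names, 4 fell in either genotype. Chchd1, a small-subunit protein, averaged 0.502 ± 0.29 CPM in MII Null and 0.252 ± 0.060 in MII WT, against 3.97 ± 0.76 in GV Null and 3.98 ± 0.58 in GV WT. Gadd45gip1 of the large subunit averaged 7.2 ± 0.44 CPM in MII Null and 7.06 ± 0.33 in MII WT, against 23.0 ± 2.5 in GV Null and 22.2 ± 1.3 in GV WT. Ptcd3 did not pass the test (log2 0.074 ± 0.098 in WT and -0.018 ± 0.092 in Null).

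Of 21 tested genes for assembly and rRNA modification, 9 fell and 3 rose in WT, and 11 fell and 4 rose in Null (medians -0.074 and -0.22). Over all genes, 22.8% fell and 19.9% rose in WT, and 26.9% fell and 22.1% rose in Null (medians 0.0053 and -0.049). Malsu1, which binds Mrpl14 on assembling large subunits, fell by 1.67 ± 0.13 (log2, SE) in WT and 1.54 ± 0.12 in Null. Gtpbp10, a GTPase of large-subunit assembly, rose by 0.57 ± 0.084 in WT and 0.63 ± 0.080 in Null. Of 14 translation factors, 4 fell and 0 rose in WT, and 4 fell and 1 rose in Null (medians -0.0047 and -0.011). For these factors the share that fell and the medians were close to those over all genes. Those that fell in WT were Tufm, the elongation factor that brings aminoacyl-tRNA, at -1.73 ± 0.26 (log2, SE), Mtrf1 and Mtrf1l of the release factor family at -1.59 ± 0.15 and -1.26 ± 0.23, and Taco1, an activator of Cox1 translation, at -1.44 ± 0.28. Of 21 tested genes for charging of mitochondrial tRNA, 7 fell and 4 rose in WT, and 8 fell and 4 rose in Null (medians -0.17 and -0.33). The 3 subunits of the enzyme that makes glutaminyl-tRNA in mitochondria parted, with Qrsl1 at -3.42 ± 0.55, Gatb at 0.72 ± 0.14 and Gatc at 1.04 ± 0.16 in WT (log2, SE), all past the threshold in both genotypes. Qrsl1 averaged 0.21 ± 0.11 CPM in MII Null and 0.11 ± 0.11 in MII WT, against 1.32 ± 0.34 in GV Null and 1.21 ± 0.13 in GV WT. Its MII WT mean lay near the detection limit of 0.0953 to 0.103 CPM in those libraries, so the size of its fall is uncertain.

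All 13 mitochondrially encoded mRNAs and both mitochondrial rRNAs rose in either genotype, where 19.9% of all genes rose in WT and 22.1% in Null. The median over the 13 mRNAs was 1.77 in WT and 1.56 in Null on the log2 scale. Their sum was 11.6 ± 2.0 times that of the members in MII Null and 9.99 ± 0.74 times in MII WT, against 3.11 ± 0.59 times in GV Null and 2.3 ± 0.13 times in GV WT (SD). The ranges of this ratio did not overlap between the stages, at 9.14 to 13.8 in the 7 MII libraries and 2.18 to 3.69 in the 6 GV libraries.

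**Figure D4:**
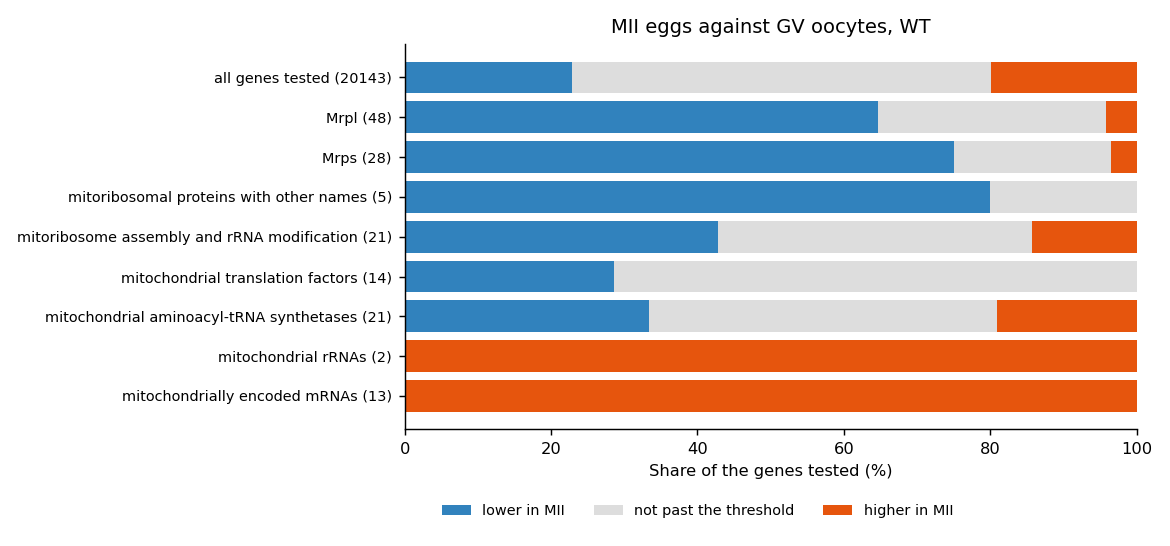
Share of tested genes (percent) that were lower (blue), not past the threshold (grey) or higher (orange) in MII WT eggs against GV WT oocytes, for all genes tested, for the Mrpl and Mrps members and for the other gene lists of mitochondrial translation, with the number tested in brackets. Of the members, 31 of 48 Mrpl and 21 of 28 Mrps genes were lower, against 22.8% of all genes. The mitochondrially encoded RNAs are all on the higher side.

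Loss of Sirena1 changed no member past the threshold at either stage. In MII eggs, 0 of 76 members were called between Null and WT, against 0.0546% of all genes (11 of 20143), with DESeq2 also calling 0 members. Under an unadjusted p of 0.05 there were 7 members, and 1280 of the 20143 genes. In GV oocytes, 0 of 76 were called, again against 0.0546% of all genes (11 of 20143), with 0 by DESeq2. Under an unadjusted p of 0.05 there were 2 members and 1342 of all genes. The difference of the genotype effect between the stages was past the threshold for 0 members, against 0.00496% of all genes, with 0 by DESeq2, and an unadjusted p under 0.05 was found for 3 members and 681 of all genes. Libraries of Null and WT did not overlap for 2 members in MII eggs (2.63%, against 6.07% of all genes) and for 3 in GV oocytes (3.95%, against 12.8%).

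The median log2 fold change of the members was 0.10 in MII eggs, with 57 of 76 above 0, and 0.063 in GV oocytes, with 51 above 0, where the medians over all genes were 0.014 and 0.018. Without MII Null replicate 1 the MII median was 0.032, with 44 members above 0. This library was the highest of its group for 47 of 76 members, and it had the largest total count of the MII libraries (40602239). In GV oocytes the cumulus markers stood higher in GV Null replicates 2 and 3 than in any GV WT library, and with their level as a covariate the GV median was 0.087, with 55 members above 0. Without GV Null replicate 3 the GV median was 0.019, with 45 members above 0, and without GV WT replicate 2 it was 0.0073, with 42 above 0, where the median over all genes was 0.011.

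The other nuclear lists of mitochondrial translation, namely 5 proteins with other names, 21 assembly genes, 14 translation factors and 21 tRNA-charging genes, likewise held 0 genes past the threshold between Null and WT at either stage, with medians of -0.051 to 0.033. Of the 13 mitochondrially encoded mRNAs, 1 passed it, mt-Nd3, a subunit gene of complex I. It averaged 34.9 ± 4.3 CPM in MII Null and 72.8 ± 2.3 in MII WT, and 9.06 ± 0.87 in GV Null and 21 ± 4.5 in GV WT, so that Null was lower at both stages (log2 -1.06 ± 0.12 in MII eggs and -1.21 ± 0.14 in GV oocytes, SE, adjusted p = 0.000722 and 0.000735). Of these 13 mRNAs, 11 in MII eggs and 12 in GV oocytes had values above 0, with medians of 0.29 and 0.48.

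In MII eggs the 4 members with the smallest p were Mrpl43, Mrpl14, Mrpl4 and Mrpl46. Mrpl43 had 0.341, 0.105, 0.222 and 0.497 CPM in the MII Null libraries and 0.894, 0.689 and 0.635 CPM in the MII WT libraries, against 2.31, 3.75 and 4.10 CPM in the GV Null and 2.58, 3.01 and 3.17 CPM in the GV WT libraries. Mrpl43 (ENSMUSG00000025208, chr19:45005014-45006442), a mitochondria-specific protein of the large subunit, was lower in every MII Null library than in any MII WT library, and Null over WT was log2 -1.31 ± 0.37 (SE, adjusted p = 0.507), with an unadjusted p of 0.0023. Between the stages it fell by 3.50 ± 0.33 (log2, SE) in Null and by 1.97 ± 0.33 in WT. The MII values rest on few reads, 3 to 16 counts in each Null pool and 20 to 27 in each WT pool. Its span overlaps Twnk, the mitochondrial DNA helicase, which averaged 12.2 ± 0.49 CPM in MII Null and 11.1 ± 1.5 in MII WT. Mrpl14, with its values given above, was 1.55-fold higher in Null with no overlap (log2 0.63 ± 0.19, SE, adjusted p = 0.562). Mrpl4 (bacterial L4), of the wall of the exit tunnel in bacteria, averaged 17.0 ± 1.7 CPM in MII Null and 13.5 ± 1.4 in MII WT, against 30.1 ± 2.5 in GV Null and 28.4 ± 1.1 in GV WT, and its MII values overlapped by a narrow margin (14.7 to 18.3 CPM in Null and 12.4 to 15.1 CPM in WT). Null over WT was log2 0.33 ± 0.11 (SE, adjusted p = 0.61) for this gene.

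Mrpl46 had 11.5, 8.47, 8.99 and 6.65 CPM in the MII Null libraries and 7.05, 5.27 and 7.40 CPM in the MII WT libraries, against 11.5, 9.36 and 10.8 CPM in the GV Null and 13.9, 13.2 and 14.0 CPM in the GV WT libraries. For Mrpl46 (ENSMUSG00000030612, chr7:78775341-78783089) the GV Null libraries were all below the GV WT libraries (log2 -0.38 ± 0.17, SE, adjusted p = 0.725), whereas in MII eggs Null was the higher on average (log2 0.44 ± 0.17, SE, adjusted p = 0.718). The difference of the effects was 0.81 ± 0.24 (log2, SE; unadjusted p = 0.00293, adjusted p = 0.999). The corresponding difference was -1.52 ± 0.47 for Mrpl43 (unadjusted p = 0.00485), 0.64 ± 0.24 for Mrpl14 (unadjusted p = 0.0159) and -0.39 ± 0.21 for Mrps15 (unadjusted p = 0.0749), each with an adjusted p of 0.999. Mrps15 had 7.48, 5.71, 5.18 and 5.62 CPM in the MII Null libraries and 6.52, 6.55 and 5.75 CPM in the MII WT libraries, against 8.18, 9.64 and 9.24 CPM in the GV Null and 6.83, 7.32 and 7.38 CPM in the GV WT libraries. For Mrps15 (bacterial S15) the GV Null libraries were all above the GV WT libraries, at log2 0.33 ± 0.15 (SE, adjusted p = 0.725). Next by p in GV oocytes were Mrpl9 at 0.20 ± 0.13 and Mrps26, a mitochondria-specific protein of the small subunit, at -0.32 ± 0.21 (unadjusted p = 0.142 and 0.148). None of these passes the adjustment over all genes tested.

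**Figure D5:**
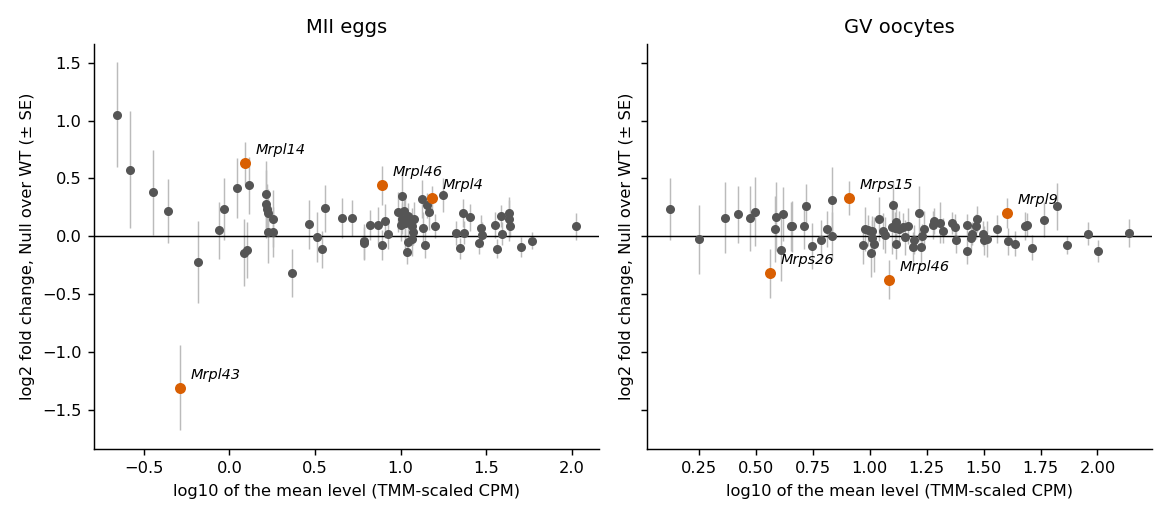
Log2 fold change of Null over WT with the SE of the fit against the log10 of the mean TMM-scaled CPM, for the 76 tested members in MII eggs (left) and GV oocytes (right); the 4 members with the smallest p at each stage are named and coloured. Values run from -1.31 (Mrpl43) to 1.05 (Mrpl27) in MII eggs and from -0.38 to 0.33 in GV oocytes, and none passed an adjusted p of 0.05.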

How the data were processed

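RNA-seq read counts per gene were deposited for 13 libraries, each from 25 cells. Per the labels, RNA was isolated with PicoPure columns, amplified and made into libraries with NuGEN kits (Ovation RNA-Seq V2, Ultralow), and sequenced as 65 bp single-end reads. STAR 2.5.3a, bedtools 2.26.0 and the build GRCm38.p6 are named in the submitters' processing notes. How reads were counted, with regard to tool, strand and multiple matches, is not given in the sources used here. Counts in the authors' table are not normalized, and no spike-in counts were used here, so all levels are relative.

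From the deposited counts, symbols were attached through Ensembl release 93 identifiers. Library sizes were scaled with TMM, genes were filtered with filterByExpr, and 1 model over the 4 groups was fitted with edgeR 4.0.16 (glmQLFit and glmQLFTest, R 4.3.3), with Benjamini-Hochberg adjustment over all 20143 genes tested and a threshold of 0.05. DESeq2 1.42.0 served as an alternative, and figures and tables were made with Python 3.11.15. Total counts of 30867614 to 41285507 set the precision, with a detection limit of 3 counts, which covers counting error only. Simulated counts were built on these libraries with the same mean in all groups, and changes were set only in genes averaging at least 5 CPM. Of these, 61.2% of 1.5-fold and 92.5% of 2-fold changes were found for Null against WT in GV oocytes. The shares were 73.1% and 98.5% in MII eggs, and 64.2% and 94.0% for MII against GV in WT. A filter at that mean kept 56 members, so the shares do not hold for lower ones such as Mrpl43.

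Pools were grouped by the labels for stage and genotype. Counts of replicate libraries differed by more than sampling noise in every group (chi-square per degree of freedom from 5.31 to 37.8). Replicate numbers recur across groups, and the labels do not say that they mark shared females or days. Alternatives were RLE scaling, DESeq2, other filters, a replicate block, a minimum of 1.5-fold, the level of cumulus cell markers as a covariate, only the groups compared, leaving out each library, and leaving out GV Null replicates 2 and 3 with MII Null replicate 4. The last of these left GV Null replicate 1 as the only pool of its group. The members and gene lists were chosen with earlier results of these data known. Members named are the 4 with the smallest p in each genotype comparison, up to 10 with the largest rise and 10 with the largest fall in WT among called members with at least 5 CPM in the higher stage and no overlap, the 4 with the highest and 4 with the lowest CPM in GV WT oocytes, the Mrps18 family, and up to 3 of each other list by the smallest p in WT. Other genes, including Mrpl27, Mrpl17, Mrpl47, the head-to-head pairs, Ptcd3, Gtpbp10, Taco1, Qrsl1 and Gatb, were named after their values were seen.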

Additional observations from a re-analysis of the deposited data

Results flagged for a closer look

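MII Null replicate 1 stood apart from the other 3 MII Null libraries in the summed level of the members, with 1321 CPM against 1041 to 1065 CPM. The gap was as clear for the Mrpl genes alone (764 CPM against 603 to 622 CPM) and for the Mrps genes alone (557 CPM against 424 to 444 CPM). Mrps33, the member with the highest CPM, had 144 CPM in this library against 95.6 to 102 CPM in the others. The library had the highest total count of the MII libraries, 40602239, and the part of depth in the result was not tested.

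Mrps34, an almost undetected member of the small subunit, had 0.0350 CPM in MII Null replicate 2, from 1 count, and 0 in the other MII Null libraries. Of 32 values looked at in the group of 4 libraries, 5 stood apart in this way (Dixon's gap ratio above 0.829). For independent values chance alone gives about 1 in 20. The flagged sums and Mrps33 share counts of the same library, and 1 count beside counts of 0 gives the largest ratio possible. No excess over chance can therefore be read from this tally.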

How the results depend on the processing

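Of the alternatives run for the members named, none reversed a direction, 1129 values kept their side of the threshold, 37 lost it and 3 gained it. The members lower in MII eggs numbered 48 to 56 in WT and 48 to 59 in Null when single libraries were left out, and 36 to 59 and 35 to 52 under the other settings, with the lowest counts at a minimum of 1.5-fold. The 3 members higher in WT became 1 at a mean of at least 5 CPM, which tested 56 members. They became 0 at a minimum of 1.5-fold, and 1 to 3 without single libraries. Of all genes, 23.2%, 0.958% and 15.6% to 20.3% were higher in WT under these settings. In Null the 3 became 1 at a mean of at least 5 CPM, 1 with the cumulus covariate, 0 at a minimum of 1.5-fold, and 2 to 3 without single libraries. Of all genes, 25.3%, 15.5%, 1.02% and 18.1% to 21.3% were higher in Null under these settings. Without a filter on low counts, 1 member passed the threshold between Null and WT in MII eggs (Mrpl43, log2 -1.30, adjusted p = 0.0494) and 1 in the difference between stages (Mrpl46, log2 0.84, adjusted p = 0.0451). Of all 39595 genes in that fit, 290 and 157 passed in these comparisons. Left-out libraries gave 0 members in each genotype comparison. The causes were not tested.

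Scaled to the library total without TMM factors, the members summed to 989.8 CPM in MII WT, 1848.2 CPM in GV Null and 1784.7 CPM in GV WT, which moves each by more than 1 SD and keeps the order of the stages. With the replicate number as a replicate block, 51 members were lower and 3 higher in WT, 50 lower and 3 higher in Null, and 0 changed between genotypes at either stage or in the difference. The numbers were not taken as pairs, since the labels do not say what a shared number means. Deviations from the group means correlated at -0.22 to 0.14 between libraries with the same number and at -0.33 to 0.32 between others. With so few pools per group these values cannot decide whether the numbers mark pairs. Mrpl43 rests on 3 to 27 counts per MII library.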
